A study of Mus musculus with 10 samples.

Results

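First-intron peaks are the regions of a CUT&Tag peak set that lie in the first intron of an annotated transcript. Members were all rows of the peak table whose annotation, given by the authors with ChIPseeker, begins with Intron and names intron 1 of its transcript. The rule took 16978 of 108253 peaks (15.7%), used no measured value, and left 28503 peaks in later introns, 17144 in promoters and 35496 in intergenic sequence for comparison. In CUT&Tag a transposase tethered by an antibody cuts DNA beside a chosen histone mark, and the fragments released are sequenced. Here these marks were lactylation of histone H3 lysine 18 (H3K18La) and acetylation of lysine 27 (H3K27Ac). The second mark is named H3K27Ac by the sample titles and the study's methods, whereas the protocol in the sample labels names an H3K9me3 antibody instead, and the titles were followed for every H3K27Ac value. All 10 libraries came from wild-type C57BL/6J mice at postnatal day 28, whose retinas, freed of sclera and pigment epithelium, were cultured as explants in Neurobasal-A medium for 48 hours and then dissociated with papain. H3K18La was profiled in 3 libraries from explants in 5 mM glucose and 3 from explants in 25 mM glucose, and H3K27Ac in 2 libraries at each level, with 500000 cells per assay. The study asked how the supply of glucose, the source of lactate in glycolysis, changed both marks. A whole explant holds every retinal cell type, and the labels do not say whether libraries came from separate animals, so that p-values measure the spread between libraries, which may be technical.

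The first intron is the intron nearest to the start of transcription, and it is often the longest of a gene. Many enhancers lie there, where H3K27Ac is a common sign of activity in the cell type that uses them. Lysine lactylation is an acyl mark whose donor derives from lactate, and photoreceptors of the retina are known for turning much of their glucose into lactate even when oxygen is present. CRX and OTX2, homeodomain factors of photoreceptors, recognise the letters TAATCC, and many enhancers of photoreceptor genes carry them.

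The central 300 bases of 8 first-intron peaks are given to show what kind of sequence the results turn on, on the plus strand of GRCm38, the build of the files. Ncam1 had the highest H3K18La of all first-intron peaks and Sntg2 was among the highest in both marks. The peaks of Rp1, Grk1 and Mef2d stand for photoreceptor genes, and those of Cnnm2, Tspan5 and Atp8a2 are 3 of the 6 largest H3K18La rises. Capitals mark TAATCC or its reverse complement GGATTA, which occurred in Mef2d and in Cnnm2 and Atp8a2, and not in the other windows. Of the 6 largest rises, only the peaks of Cnnm2 and Atp8a2 held it.
Ncam1, chr9:49720772-49721071: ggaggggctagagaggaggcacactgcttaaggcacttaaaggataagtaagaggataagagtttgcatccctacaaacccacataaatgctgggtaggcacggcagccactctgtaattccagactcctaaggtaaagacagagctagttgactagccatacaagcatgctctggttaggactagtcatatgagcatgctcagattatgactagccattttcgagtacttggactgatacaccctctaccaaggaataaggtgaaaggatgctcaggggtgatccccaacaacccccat
Sntg2, chr12:30369866-30370165: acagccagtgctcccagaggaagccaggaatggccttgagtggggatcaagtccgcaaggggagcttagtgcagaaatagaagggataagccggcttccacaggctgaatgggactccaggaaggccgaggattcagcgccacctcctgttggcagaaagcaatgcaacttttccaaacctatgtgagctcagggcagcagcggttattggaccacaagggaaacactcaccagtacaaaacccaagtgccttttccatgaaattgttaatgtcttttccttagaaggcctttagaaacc
Rp1, chr1:4383521-4383820: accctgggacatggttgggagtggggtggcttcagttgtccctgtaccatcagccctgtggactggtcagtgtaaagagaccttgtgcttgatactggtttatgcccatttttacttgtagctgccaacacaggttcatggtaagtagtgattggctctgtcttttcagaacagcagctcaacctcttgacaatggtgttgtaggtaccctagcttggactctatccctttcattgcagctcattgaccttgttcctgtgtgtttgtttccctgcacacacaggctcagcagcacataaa
Grk1, chr8:13405946-13406245: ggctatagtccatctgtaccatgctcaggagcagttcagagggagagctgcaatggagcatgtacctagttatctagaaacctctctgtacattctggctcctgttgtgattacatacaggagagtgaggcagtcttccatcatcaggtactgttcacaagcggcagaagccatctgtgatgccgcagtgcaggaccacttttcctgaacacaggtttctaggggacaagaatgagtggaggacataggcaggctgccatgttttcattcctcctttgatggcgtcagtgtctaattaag
Mef2d, chr3:88147912-88148211: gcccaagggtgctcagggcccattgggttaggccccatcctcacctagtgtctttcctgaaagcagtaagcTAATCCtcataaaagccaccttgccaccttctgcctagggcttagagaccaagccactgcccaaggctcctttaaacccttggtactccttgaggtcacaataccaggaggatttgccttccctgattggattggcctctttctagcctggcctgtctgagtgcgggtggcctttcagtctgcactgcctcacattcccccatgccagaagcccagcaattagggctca
Cnnm2, chr19:46792099-46792398: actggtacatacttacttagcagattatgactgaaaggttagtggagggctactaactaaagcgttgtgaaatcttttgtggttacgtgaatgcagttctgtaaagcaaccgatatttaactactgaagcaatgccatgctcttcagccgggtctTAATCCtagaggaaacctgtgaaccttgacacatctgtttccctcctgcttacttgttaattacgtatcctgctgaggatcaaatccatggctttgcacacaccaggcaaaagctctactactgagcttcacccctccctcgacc
Tspan5, chr3:138819115-138819414: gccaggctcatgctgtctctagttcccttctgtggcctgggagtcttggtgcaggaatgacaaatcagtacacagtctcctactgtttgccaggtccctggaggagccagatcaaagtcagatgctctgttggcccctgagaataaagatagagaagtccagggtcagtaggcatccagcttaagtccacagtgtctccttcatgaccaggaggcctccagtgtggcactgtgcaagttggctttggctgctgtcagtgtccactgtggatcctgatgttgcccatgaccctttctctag
Atp8a2, chr14:60166251-60166550: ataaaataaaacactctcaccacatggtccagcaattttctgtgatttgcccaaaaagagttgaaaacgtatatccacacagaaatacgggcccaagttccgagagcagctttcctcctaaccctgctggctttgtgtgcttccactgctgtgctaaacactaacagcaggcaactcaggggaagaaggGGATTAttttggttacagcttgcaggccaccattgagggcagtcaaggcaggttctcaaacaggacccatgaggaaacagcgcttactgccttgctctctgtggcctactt

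Reads were thin over single peaks. The library totals behind the deposited values ranged from 1358008 to 7424470 reads, and a first-intron peak held a median of 1 to 6 reads in an H3K18La library and 5 to 15 in an H3K27Ac library. Between 3.76% and 37.7% of first-intron peaks had no read in a given library, with the highest share in the third H3K18La library at 5 mM, the shallowest. In H3K18La, 11.8% to 12% of a library's total lay in peaks at 5 mM and 31.2% to 35.0% at 25 mM. For H3K27Ac the shares were 21.1% and 31.5% at 5 mM, and 69.5% and 56.5% at 25 mM. Replicates of each group differed from each other by more than sampling noise (chi-square test of their reads over peaks, largest p = 0.000723), so no library was counted as a copy of another. The excess was slight in H3K18La at 5 mM, where chi-square per degree of freedom was 1.04 to 1.06. It was 1.14 to 1.84 in H3K18La at 25 mM. In H3K27Ac it was 1.21 at 5 mM and 2.87 at 25 mM.

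The 16978 peaks lay in the first introns of 5124 host genes. A single such peak was found in 2471 hosts, while 353 hosts had at least 10 and together held 6189 peaks. Most peaks, 14585 (85.9%), lay in introns of protein-coding genes, 1685 in lincRNA genes and 409 in antisense genes. The introns were long, with a median of 54016 bp, and peaks sat at a median of 22158.5 bp from the 5′ splice site, at 0.513 of the intron's length. The median distance to the annotated start was 26950 bp. Peaks closer than 501 bp did not occur, since the authors' promoter class covers -1000 to 500 bp, and 869 peaks lay within 2 kb. Of 16894 members with a matched transcript, 13511 lay in intron 1 of every overlapping transcript of the host and 3383 in a later intron of another. Median GC content was 48.6% against 57.5% in promoter peaks, and CpG density was 10.6 per kb against 49.0, so first-intron peaks resembled other distal peaks in base composition.

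First-intron peaks held about the same part of each library's peak reads in both marks, and glucose moved it little. For H3K18La the share was 16.8%, 16.8% and 16.7% at 5 mM and 17.4%, 17.8% and 17.8% at 25 mM. All 3 libraries at 25 mM were above all at 5 mM, and the group means differed by 0.886 points. The exact two-sided permutation test gave the smallest p that 3 against 3 libraries allow (p = 0.1, Benjamini-Hochberg adjusted over 4 tests 0.2). For H3K27Ac the share was 17.1% and 17.8% at 5 mM and 16.0% and 17.9% at 25 mM, so the glucose groups overlapped (exact permutation p = 1, smallest possible 0.333). The 95% Wilson half-widths of these shares, which cover counting error only, were at most 0.183 points. The median RPKM of a first-intron peak was 0.970, 1.03 and 0.924 in H3K18La at 5 mM and 2.10, 1.97 and 1.92 at 25 mM (exact permutation p = 0.1, adjusted 0.2). In H3K27Ac it was 1.48 and 1.91 at 5 mM and 2.76 and 2.68 at 25 mM (exact permutation p = 0.333, adjusted 0.444). The groups did not overlap in either mark.

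**Figure D1:**
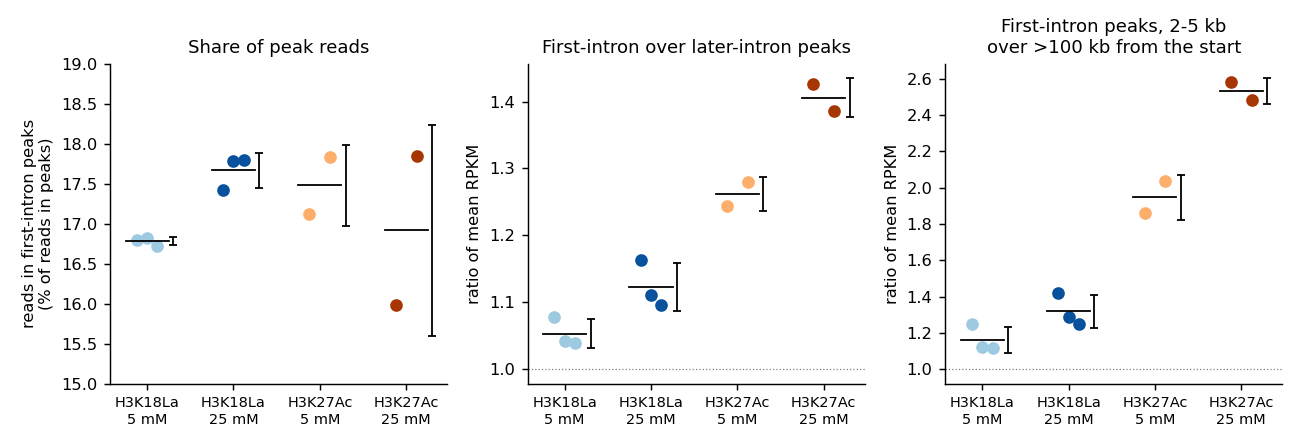
Each point is 1 library. Panels show the share of peak reads in first-intron peaks in percent, the mean RPKM of first-intron over later-intron peaks, and the mean RPKM of first-intron peaks 2 to 5 kb from the start over those beyond 100 kb, with horizontal lines for group means and bars for the SD (n = 3 for H3K18La, n = 2 for H3K27Ac). The vertical axes do not start at 0, and a dotted line marks a ratio of 1. The shares lie between 16.0% and 17.9%, while both ratios are higher in each H3K27Ac library than in each H3K18La library.

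The marks differed in how strongly first introns stood out from other classes. Mean RPKM over first-intron peaks divided by that over later-intron peaks was 1.08, 1.04 and 1.04 for H3K18La at 5 mM and 1.16, 1.11 and 1.10 at 25 mM. The same ratio was 1.24 and 1.28 for H3K27Ac at 5 mM and 1.43 and 1.39 at 25 mM. Every H3K27Ac library was therefore above every H3K18La library, with means of 1.33 ± 0.0861 (SD, n = 4) and 1.09 ± 0.0467 (SD, n = 6, exact permutation p = 0.00952, adjusted over 12 tests 0.0286). Against promoters the order turned. First-intron peaks had 1.03 to 1.34 times the mean RPKM of promoter peaks in the 6 H3K18La libraries, and 0.516 to 0.748 times in the 4 H3K27Ac libraries, again without overlap (means 1.19 ± 0.113 and 0.664 ± 0.102, SD, exact permutation p = 0.00952, adjusted 0.0286). Over intergenic peaks, the ratio was 1.19 to 1.44 in H3K18La and 1.98 to 2.46 in H3K27Ac (exact permutation p = 0.00952, adjusted 0.0286). In both marks the first-intron to intergenic ratio was higher in each 25 mM library than in each 5 mM library, which these numbers of libraries cannot bring below p = 0.1 (H3K18La, exact permutation, adjusted 0.171) or 0.333 (H3K27Ac, adjusted 0.364). The tests between marks pooled the libraries of both glucose levels, so these SDs include the difference between the levels. Within a glucose level the libraries are too few for this test to reach 0.05. The depth of the libraries and the share of reads in peaks differed between marks as well, and their part in these ratios was not tested.

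H3K27Ac at first-intron peaks varied more with distance to the start than H3K18La did. At 25 mM, mean H3K27Ac over the 2 libraries was 5.92 RPKM in the 291 peaks under 1 kb, 9.63 in the 1233 peaks at 2 to 5 kb, and 3.80 in the 3043 peaks beyond 100 kb. Mean H3K18La at 25 mM moved over a narrower range, with 2.54 RPKM under 1 kb, 3.92 at 2 to 5 kb, 3.60 at 50 to 100 kb and 2.97 beyond 100 kb. The mean at 2 to 5 kb over that beyond 100 kb was 1.25, 1.12 and 1.12 for H3K18La at 5 mM and 1.42, 1.29 and 1.25 at 25 mM. For H3K27Ac the ratio was 1.86 and 2.03 at 5 mM and 2.58 and 2.48 at 25 mM, above every H3K18La library (means 2.24 ± 0.348 against 1.24 ± 0.113, SD, n = 4 and 6, both glucose levels pooled, exact permutation p = 0.00952, adjusted 0.0286). Median H3K27Ac was instead highest at 5 to 10 kb in every library. At 25 mM it was 3.86 and 3.71 RPKM there, 3.32 and 3.16 at 2 to 5 kb, and 1.62 and 1.61 beyond 100 kb. Both marks dipped in the peaks nearest to the promoter boundary, where both marks were lower than at 2 to 5 kb in every library. Position as a fraction of the intron added little for H3K18La, since 30.4% to 32.1% of peaks rose with glucose in each of 5 groups of relative position.

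**Figure D2:**
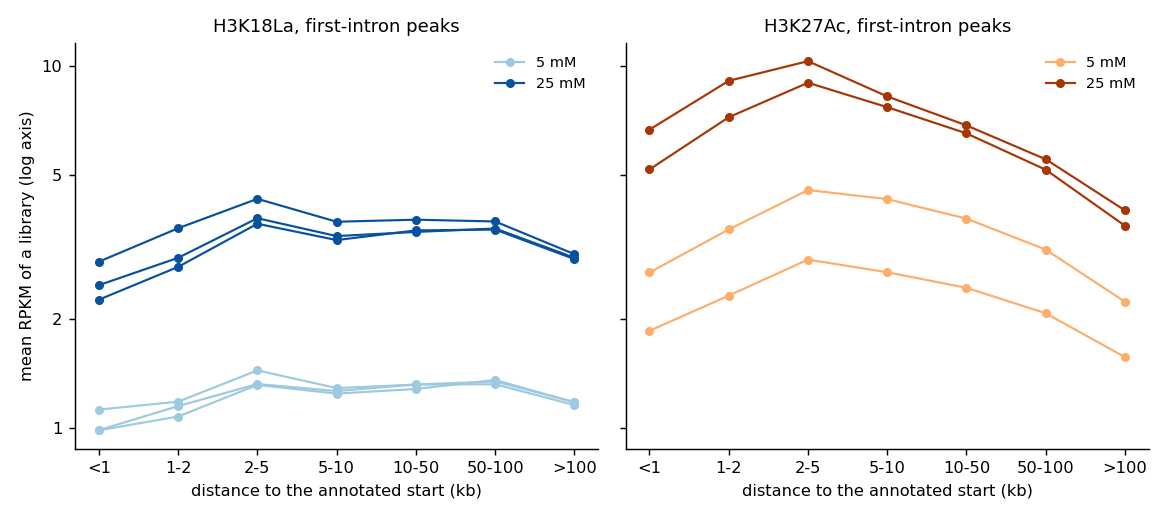
Mean RPKM of first-intron peaks (log axis) in 7 classes of distance to the annotated start in kb, with 1 line per library, H3K18La on the left and H3K27Ac on the right. Mean H3K27Ac falls from 2 to 5 kb outward in all 4 libraries, while its medians, not drawn, are highest at 5 to 10 kb. H3K18La is flatter, and the 25 mM lines are above the 5 mM lines in both marks.

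H3K18La changed with glucose at 31.3% of first-intron peaks, nearly always upward. In the limma fit on log2(RPKM + 0.5) over all 108253 peaks, 5322 first-intron peaks passed an adjusted p of 0.05 (31.3%), 5293 with more signal at 25 mM and 29 with less. Over the whole set 25.4% of peaks were called, 25.1% higher and 0.303% lower. The called share was 25.9% in later introns, 29.3% in promoters and 20.7% in intergenic peaks, and these shares were not tested against each other. The median change was 0.88 in first-intron peaks, 0.77 in later introns, 0.88 in promoters, 0.63 in intergenic peaks and 0.76 over all peaks, each on the log2(RPKM + 0.5) scale, which understates the change of low peaks. In 7101 first-intron peaks (41.8%) every 25 mM library was above every 5 mM library, against 36.6% of the whole set. Chromatin came from whole explants, so fewer cells of a type and less signal per cell cannot be told apart.

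These calls depended on the scale. When libraries were scaled to the reads in peaks, which removes the rise in the share of reads in peaks, the median change of first-intron peaks was 0.02 and none was called (2786 at an unadjusted p under 0.05, and 5 called over the whole set), and none of the rises named here remained called. With each library centred on the median of all peaks, which lowers H3K18La changes by 0.63 and H3K27Ac changes by 0.44, 1752 first-intron peaks were higher (10.3%, against 7.39% of all peaks), 124 lower (0.730%, against 0.991%), and the median was 0.25, against 0.13. The 29 peaks called lower held only 3 to 17 reads over the 6 H3K18La libraries, with a median of 6, and 14 of them had no read in any 25 mM library. None reached the 30 reads required for a named fall.

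**Figure D3:**
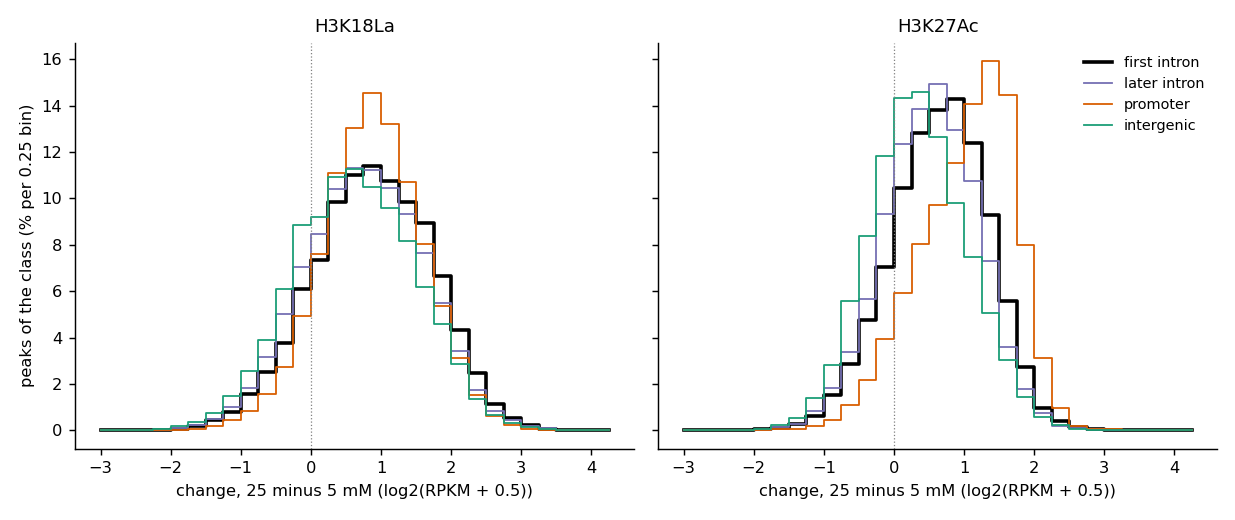
Distribution of the glucose change (25 minus 5 mM, log2(RPKM + 0.5)) of each peak class as percent of the class per bin of 0.25, for H3K18La on the left and H3K27Ac on the right. The first-intron curve (median 0.88) lies to the right of the later-intron and intergenic curves in H3K18La, and in H3K27Ac (median 0.67) it lies between these and the promoters (median 1.13).

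For H3K27Ac no first-intron peak passed the adjusted threshold in the limma fit (smallest adjusted p 0.0553), while limma gave 3985 (23.5%) an unadjusted p below 0.05. Of these, 3953 had more signal at 25 mM. Over the whole set, 21.5% of peaks had such a p and 21.2% had it with more signal at 25 mM. With limma's voom on the reads recovered from the RPKM values, 3844 first-intron peaks passed, where 21.4% of all peaks did, and 3796 of them were higher, where 21% of all peaks were. The median change was 0.67 in first-intron peaks, 0.58 over all peaks, 1.13 in promoters, 0.54 in later introns and 0.33 in intergenic peaks, and it was -0.26 in first-intron peaks after scaling to the reads in peaks. In 9946 first-intron peaks (58.6%) both 25 mM libraries were above both 5 mM libraries, against 53% of the whole set. No first-intron peak passed the test of a different glucose response in the 2 marks, while 757 (4.46%) had an unadjusted p under 0.05 in limma, against 4.79% over all peaks, and voom called 0 as well with 1093 below that p (6.44%, against 6.60% over all peaks). The median difference between the marks' changes, H3K18La minus H3K27Ac, was 0.26 in first introns, beside 0.28 in later introns, 0.30 in intergenic peaks, 0.20 over all peaks and -0.15 in promoters. With libraries centred on the median of all peaks it was 0.07 in first introns and 0.01 over all peaks.

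The strongest first-intron peaks included some in genes of neuronal adhesion and synapses. Ncam1 encodes the neural cell adhesion molecule, and its peak at chr9:49720634-49721209, 77716 bp from the start, had the highest mean H3K18La. It held 10.7, 12.1 and 8.95 RPKM of H3K18La at 5 mM and 64.5, 47.4 and 69.1 at 25 mM (log2 change 2.45 ± 0.33 SE, adjusted p = 0.00138). In H3K27Ac it held 18.5 and 32.7 RPKM at 5 mM and 92.4 and 73.4 at 25 mM (log2 change 1.72 ± 0.40 SE, adjusted p = 0.0553). The glucose groups were separate in both marks, and the H3K18La groups lay farther apart than their spread. Sntg2, the gene of a syntrophin that anchors membrane proteins, had a peak at chr12:30369781-30370250 that ranked among the 5 highest in both marks. It held 9.08, 8.62 and 11 RPKM of H3K18La at 5 mM and 42.2, 31.4 and 44.5 at 25 mM (1.98 ± 0.34 SE, adjusted p = 0.00225). Its H3K27Ac was 17.7 and 39.1 RPKM at 5 mM and 110.3 and 84.3 at 25 mM (1.85 ± 0.42 SE, adjusted p = 0.0553). The changes of Sntg2 in the 2 marks differed by 0.13 ± 0.54 SE (adjusted p = 0.991).

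Of the other 3 peaks highest in H3K18La, Sv2b, which encodes a synaptic vesicle glycoprotein, rose from 9.84, 7.21 and 8.15 RPKM to 45.7, 31.3 and 45.2 in H3K18La (2.20 ± 0.36 SE, adjusted p = 0.00175). Hpcal1, the gene of a neuronal calcium sensor, rose from 14.2, 10.1 and 5.50 to 38.0, 37.6 and 51.6 RPKM (2.12 ± 0.37 SE, adjusted p = 0.00235), and its H3K27Ac change of 1.01 ± 0.46 SE was not called and turned to -0.25 when scaled to the reads in peaks. The last lay in the adhesion gene Ntm and is described further on. Among the peaks highest in H3K27Ac, Anp32a, which encodes a nuclear phosphoprotein, held 24.8 and 33.3 RPKM at 5 mM and 131 and 88.7 at 25 mM, and its H3K18La rose from 5.91, 6.26 and 0 to 35.5, 19 and 26.9 RPKM (3.27 ± 0.78 SE, adjusted p = 0.00967). Without the third 5 mM library, which had no read there, the change of Anp32a was 2.03, and without the first or the second it was 3.87 and 3.90. Rd3, whose product regulates the guanylate cyclase of photoreceptors, held 19.1 and 26.1 RPKM of H3K27Ac at 5 mM and 129 and 77.2 at 25 mM (2.13 ± 0.43 SE, adjusted p = 0.0553). Its H3K18La rose from 4.48, 6.13 and 5.06 to 37.6, 22.6 and 17.1 RPKM (2.13 ± 0.35 SE, adjusted p = 0.00180). Map7, the gene of a microtubule-associated protein, and the kinase-like gene Stk40 completed the list, with H3K18La changes of 2.11 ± 0.36 SE and 1.94 ± 0.33 SE (adjusted p = 0.00215 and 0.00209). At every one of these 9 peaks the 25 mM libraries were above the 5 mM libraries in both marks.

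The largest H3K18La rises with at least 30 reads over the 6 libraries had 1 to 27 reads over the 3 libraries at 5 mM. In Cnnm2, which encodes a protein of magnesium transport, H3K18La was 0, 1.39 and 0 RPKM at 5 mM and 8.22, 6.62 and 9.68 at 25 mM (3.46 ± 0.55 SE, adjusted p = 0.00164). H3K27Ac was already present there at 5 mM, with 3.32 and 13.6 RPKM, and stood at 19.5 and 20.6 at 25 mM. Only 4 reads carried the H3K18La value at 5 mM, and the pooled read ratio of 9.61 had an exact 95% counting interval of 3.48 to 37.0. Atp8a2, the gene of a phospholipid flippase of photoreceptors and neurons, rose from 2.20, 0.895 and 0 to 13.0, 13.7 and 12.5 RPKM (3.46 ± 0.49 SE, adjusted p = 0.00140, read ratio 12.3 with interval 4.51 to 46.7). Its H3K27Ac was 3.76 and 5.23 RPKM at 5 mM and 9.68 and 9.38 at 25 mM, a change of 1.02 ± 0.59 SE that was not called and was -0.16 when scaled to the reads in peaks. Ppp2r2b, a regulatory subunit gene of a major serine/threonine phosphatase, rose from 0, 1.95 and 0 to 8.58, 14.1 and 10.2 RPKM (3.73 ± 0.59 SE, adjusted p = 0.00159). Tspan5, a tetraspanin gene, rose from 0, 3.76 and 0 to 11.3, 8.91 and 12.2 RPKM (3.46 ± 0.75 SE, adjusted p = 0.00632). The peak in Gm43154, a lincRNA gene, rose from 2.02, 2.88 and 0 to 19.1, 19.9 and 17.2 RPKM (3.57 ± 0.56 SE, adjusted p = 0.00156). The largest fitted rise, in the intron of Galnt2l at chr8:120733761-120734111, rested on 1 read at 5 mM, so that its read ratio of 33.6 had an interval of 5.66 to 1367. A call and separate groups were conditions of the choice. Leaving out 1 library moved the fold of each of the 6 by over 1.5 times while the call held. Without the third 5 mM library the log2 change was 2.80 in Atp8a2 and 2.72 in Gm43154, and without the second it was 4.10 in Cnnm2, 4.49 in Ppp2r2b and 4.49 in Tspan5. The Galnt2l peak, at 3.74 in all libraries, stood at 3.06 without the first 25 mM library and at 4.37 without the first at 5 mM.

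The size of the change in one mark followed the level of the other. Members were ranked by mean H3K27Ac RPKM and split into 10 groups of equal size. H3K18La reads, pooled and divided by the library totals, were 1.25 times as high at 25 mM as at 5 mM in the lowest group and 4.04 times as high in the highest, with median log2 changes of 0.14 and 1.84 and 2.59% and 90.5% of peaks called higher. Ranked in turn by mean H3K18La, the H3K27Ac read ratio was 1.38 in the lowest group and 2.67 in the highest, with median log2 changes of 0.13 and 1.38. Both ratios climbed from each group to the next. Read depth climbs along with level, so that the share called describes both. The same held for width, where the widest peaks of 5 equal groups had a median H3K18La change of 1.16, 50.5% called higher and a median of 63 reads over the 6 libraries, and the narrowest 0.63, 19.2% and 8 reads. Across 5 groups of GC content, 30% to 32.4% of peaks were called higher.

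**Figure D4:**
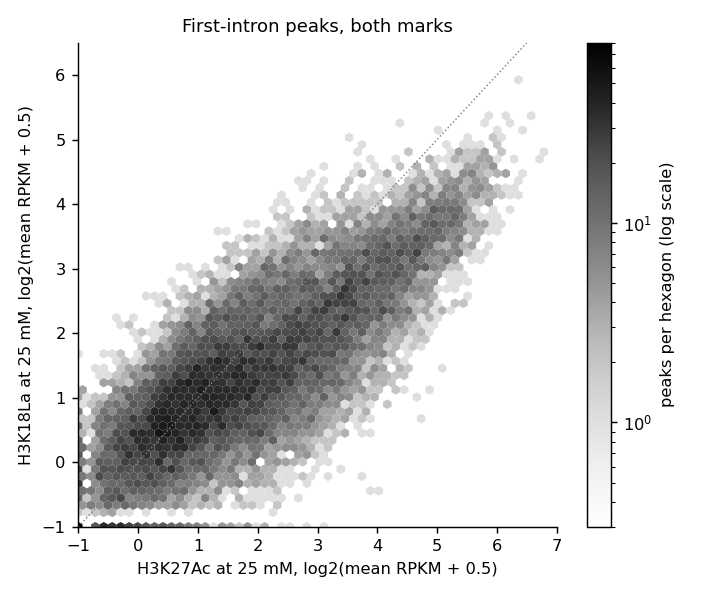
Mean H3K18La (vertical) against mean H3K27Ac (horizontal) at 25 mM for the 16978 first-intron peaks, each as log2(mean RPKM + 0.5), with grey hexagons for the number of peaks on a log scale and a dotted line of equal levels. Most peaks form 1 band along which both marks increase, and 33.8% lie above the line. The line equates RPKM of different antibodies and not amounts of the marks.

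Opposite movement was rare. In 120 first-intron peaks (0.707%) every H3K18La library at 25 mM was above, and every H3K27Ac library at 25 mM below, those at 5 mM, against 0.701% of all peaks. The reverse held in 35 (0.206%), against 0.176% of all peaks. At 25 mM, H3K18La exceeded H3K27Ac in mean RPKM at 33.8% of first-intron peaks, 40.2% of later-intron, 15.3% of promoter and 59.4% of intergenic peaks. RPKM is not a common scale for different antibodies. At 25 mM, 31.2% to 35.0% of reads lay in peaks in H3K18La, and 56.5% to 69.5% in H3K27Ac. These shares therefore do not show which mark is more abundant.

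First introns could be set against the promoter of the same gene in 3509 genes with a peak in both places, with the highest peak taken for each. In H3K18La the median change was 1.01 for the intron peak and 1.05 for the promoter peak, and in H3K27Ac it was 0.86 and 1.16. H3K18La was called higher at 37.9% of the intron peaks and 40.7% of the promoter peaks, against 25.1% of all peaks. The share called climbs with level, so the highest peaks of genes are not on equal terms with all peaks. The intron peak was above the promoter peak in 49.2%, 52.5% and 49.2% of genes in H3K18La at 5 mM and in 44.0%, 52.2% and 53.1% at 25 mM. For H3K27Ac it was above in 42.1% and 44.1% at 5 mM and in 31.5% and 44.0% at 25 mM. The promoter peak was the higher one in most genes in all 4 H3K27Ac libraries, but the marks overlapped, since the first H3K18La library at 25 mM lay beside the second H3K27Ac library at each glucose level.

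First-intron peaks in genes of photoreceptor function had larger median changes than the peak set as a whole. They also held more reads, with medians of 31.5 to 126 over the 6 H3K18La libraries in the 4 lists of photoreceptor genes, against 20 in all first-intron peaks and 17 over all peaks, and the part of depth in the shares called was not tested. The rod and cone phototransduction list holds 27 genes, of which 9 had first-intron peaks, 18 in all. H3K18La rose at 13 of the 18 (72.2%), none fell, and the median change was 1.57 in H3K18La and 1.57 in H3K27Ac, with 15 higher at an unadjusted p under 0.05 in H3K27Ac (83.3%). For all peaks the medians were 0.76 and 0.58, 25.1% were called higher in H3K18La and 21.2% were higher at that p in H3K27Ac. Summed over these 18 peaks, H3K18La ranged from 20.9 to 30.2 RPKM in the 5 mM libraries and from 85.3 to 123 at 25 mM, and H3K27Ac from 56.0 to 108 and from 278 to 388. After scaling to the reads in peaks the medians were 0.44 and 0.47. The first 25 mM library stood apart in both marks, with 23.2% of its H3K18La peak reads in promoters against at most 18.9% in the other 25 mM libraries, and 41.5% against 35.1% in H3K27Ac. Without it, an alternative chosen after the data were seen, H3K18La rose at 8 of the 18 (44.4%, against 18.8% of all peaks), and the medians were 1.47 in H3K18La and 1.66 in H3K27Ac, against 0.77 and 0.59 over all peaks. In Grk1, the rhodopsin kinase gene, a peak 790 bp from the start held 8.43, 3.00 and 6.55 RPKM of H3K18La at 5 mM and 23.7, 16.9 and 16.5 at 25 mM (1.68 ± 0.40 SE, adjusted p = 0.0103). The H3K27Ac of this peak was 8.22 and 16.8 RPKM at 5 mM and 83.4 and 51.8 at 25 mM (2.43 ± 0.49 SE, adjusted p = 0.0553). Its groups were separate in both marks, with the 25 mM libraries above.

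Calls at the other phototransduction genes differed in how well they held. Guca1a, which encodes an activator of photoreceptor guanylate cyclase, held 3.11 and 5.42 RPKM of H3K27Ac at 5 mM and 40.2 and 22.7 at 25 mM (2.73 ± 0.78 SE, unadjusted p = 0.00435, limma). Its H3K18La was 3.19, 1.67 and 0.708 RPKM at 5 mM and 16.1, 5.20 and 1.62 at 25 mM, so the groups overlapped and the change of 1.46 ± 0.64 SE was not called (adjusted p = 0.115). It was 0.71 without the first 25 mM library and 2.19, which was called (adjusted p = 0.0239), without the third. Gnb1, the transducin beta gene, held 0, 0.775 and 2.96 RPKM of H3K18La at 5 mM and 14.3, 2.96 and 3.39 at 25 mM, a rise that was called (adjusted p = 0.0488) but passed in only 1 of the 6 fits that left out an H3K18La library. The Gnb1 change of 2.17 ± 0.74 SE was 1.5 without the first 25 mM library, 1.48 without the first at 5 mM and 2.87 without the third at 5 mM. The channel gene Cnga1 held 3.69, 1.5 and 1.91 RPKM at 5 mM and 2.64, 4.47 and 7.01 at 25 mM, which overlapped (adjusted p = 0.127), with -0.41 when scaled to the reads in peaks. Among the phosphodiesterase genes, H3K18La changes were 1.94 ± 0.64 SE in Pde6a, 1.21 ± 0.37 SE in Pde6b and 1.19 ± 0.32 SE in the cone gene Pde6c (adjusted p = 0.0436, 0.0324 and 0.0177). Pde6a and Pde6b each passed in 2 of 6 fits with a library left out, the Pde6a change was 1.33 without the third 5 mM library, and the call of Pde6c was lost without the second or the third 25 mM library and its change was -0.06 when scaled to the reads in peaks. Rgs9, which encodes the protein that shuts off transducin, rose from 0.602, 2.94 and 0.936 to 5.82, 8.44 and 8.14 RPKM (2.16 ± 0.40 SE, adjusted p = 0.00290). The peak of the cone opsin gene Opn1sw was called too, but it had no H3K18La read at 5 mM and 5 in all at 25 mM, too few for a fold.

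Photoreceptor transcription factors, a list of 18 genes, had 151 first-intron peaks in 12 hosts, 57 of them in Rora. H3K18La rose at 74 (49.0%, against 25.1% of all peaks) and fell at none, with a median change of 1.27. The H3K27Ac median was 1.01, with 55 higher at an unadjusted p under 0.05 (36.4%, against 21.2% of all peaks). After scaling to the reads in peaks these medians were 0.19 and -0.02. Without the first 25 mM library H3K18La rose at 63 (41.7%, against 18.8% of all peaks), and the medians were 1.34 and 1.01. Mef2d, a factor of photoreceptor gene expression, held 1.67, 2.38 and 1.94 RPKM of H3K18La at 5 mM and 29.6, 12.6 and 10.1 at 25 mM (2.70 ± 0.42 SE, adjusted p = 0.00150). Its H3K27Ac was 12 and 25.5 RPKM at 5 mM and 88.1 and 57.9 at 25 mM (2.00 ± 0.51 SE, adjusted p = 0.0582). In Otx2, which specifies photoreceptors, H3K18La rose from 1.06, 1.72 and 0 to 12.5, 13.1 and 6.76 RPKM (3.18 ± 0.48 SE, adjusted p = 0.00147). Without the third 5 mM library the change of Otx2 was 2.55. All 25 mM libraries of Mef2d and Otx2 were above the 5 mM libraries in both marks.

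Esrrb, the gene of a nuclear receptor of rods, had 1.97, 1.96 and 3.41 RPKM of H3K18La at 5 mM and 19.8, 12.9 and 14.2 at 25 mM (2.46 ± 0.34 SE, adjusted p = 0.00138). H3K27Ac at the Esrrb peak was 5.46 and 9.23 RPKM at 5 mM and 56.8 and 34.1 at 25 mM (2.55 ± 0.41 SE, adjusted p = 0.0553). Prdm1 and Samd7, a repressor of the bipolar fate and a rod silencing factor, changed in H3K18La by 2.30 ± 0.33 SE and 2.71 ± 0.40 SE (adjusted p = 0.00140 and 0.00140). Rorb and Rax, which act early in the photoreceptor programme, changed by 1.80 ± 0.32 SE and 2.46 ± 0.59 SE (adjusted p = 0.00247 and 0.0101). The change of Rax was 1.72 without the first 5 mM library and 3.21 without the third, and it was called in both fits. Thrb, the thyroid hormone receptor gene of cones, rose by 1.42 ± 0.33 SE in H3K18La (adjusted p = 0.00851), while its uncalled H3K27Ac change of 0.88 ± 0.40 SE turned to -0.32 when scaled. The groups of 2 further factors overlapped in H3K18La. Rxrg, a cone gene, held 2.88, 1.17 and 1.49 RPKM of H3K18La at 5 mM and 2.06, 4.24 and 2.05 at 25 mM, with overlapping groups (adjusted p = 0.457, change -0.15 when centred). The strongest Mef2c peak held 0, 1.22 and 3.09 RPKM at 5 mM and 1.07, 2.07 and 2.83 at 25 mM, again overlapping (adjusted p = 0.463, change -0.13 when scaled to the reads in peaks).

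The genes that the study names from RNA-seq of its explants and sets beside these marks gave 14 first-intron peaks in 3 of 9 genes. Casz1 held 7 of these peaks and Rp1 6. The study names the genes for higher expression and compares them with these marks, so a choice free of these libraries is not established. They also come from the same glucose experiment, so their direction is not independent evidence. H3K18La was higher at 13 of the 14 peaks, against 25.1% of all peaks, with a median change of 2.09 (1.01 after scaling to the reads in peaks), and the H3K27Ac median was 1.81. Rp1, whose product organises outer segment discs, held 1.97, 2.67 and 4.08 RPKM of H3K18La at 5 mM and 36.6, 15.3 and 14.0 at 25 mM (2.63 ± 0.42 SE, adjusted p = 0.00168). In H3K27Ac Rp1 held 9.29 and 16.7 RPKM at 5 mM and 67.4 and 37.3 at 25 mM (1.96 ± 0.52 SE, adjusted p = 0.0612). Its first 25 mM library was the highest in either mark. Casz1, a zinc finger gene of retinal neurons, rose from 3.75, 4.36 and 4.16 to 25.3, 12.8 and 16.8 RPKM of H3K18La (1.98 ± 0.32 SE, adjusted p = 0.00179). Impg1, which encodes a proteoglycan of the interphotoreceptor matrix, had a single first-intron peak with 1.17, 0.239 and 3.65 RPKM at 5 mM and 3.15, 3.05 and 1.67 at 25 mM, so that its groups overlapped (0.82 ± 0.52 SE, adjusted p = 0.277, -0.23 when scaled to the reads in peaks). Without the second 5 mM library the Impg1 change was 0.21, and without the third it was 1.45 and called (adjusted p = 0.0293). A list of 31 genes of photoreceptor structure, cilium and synapse had 83 peaks in 13 hosts, of which 65 rose in H3K18La (78.3%, against 25.1% of all peaks). Pcdh15 alone held 23 of these 83 peaks, and Syt1 and Elfn1 held 13 each. The median change of these 83 was 1.78 in H3K18La and 1.26 in H3K27Ac, and 0.63 and 0.11 when scaled. Without the first 25 mM library 11 of the 14 peaks (78.6%) and 54 of the 83 (65.1%) rose, against 18.8% of all peaks in that fit.

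**Figure D5:**
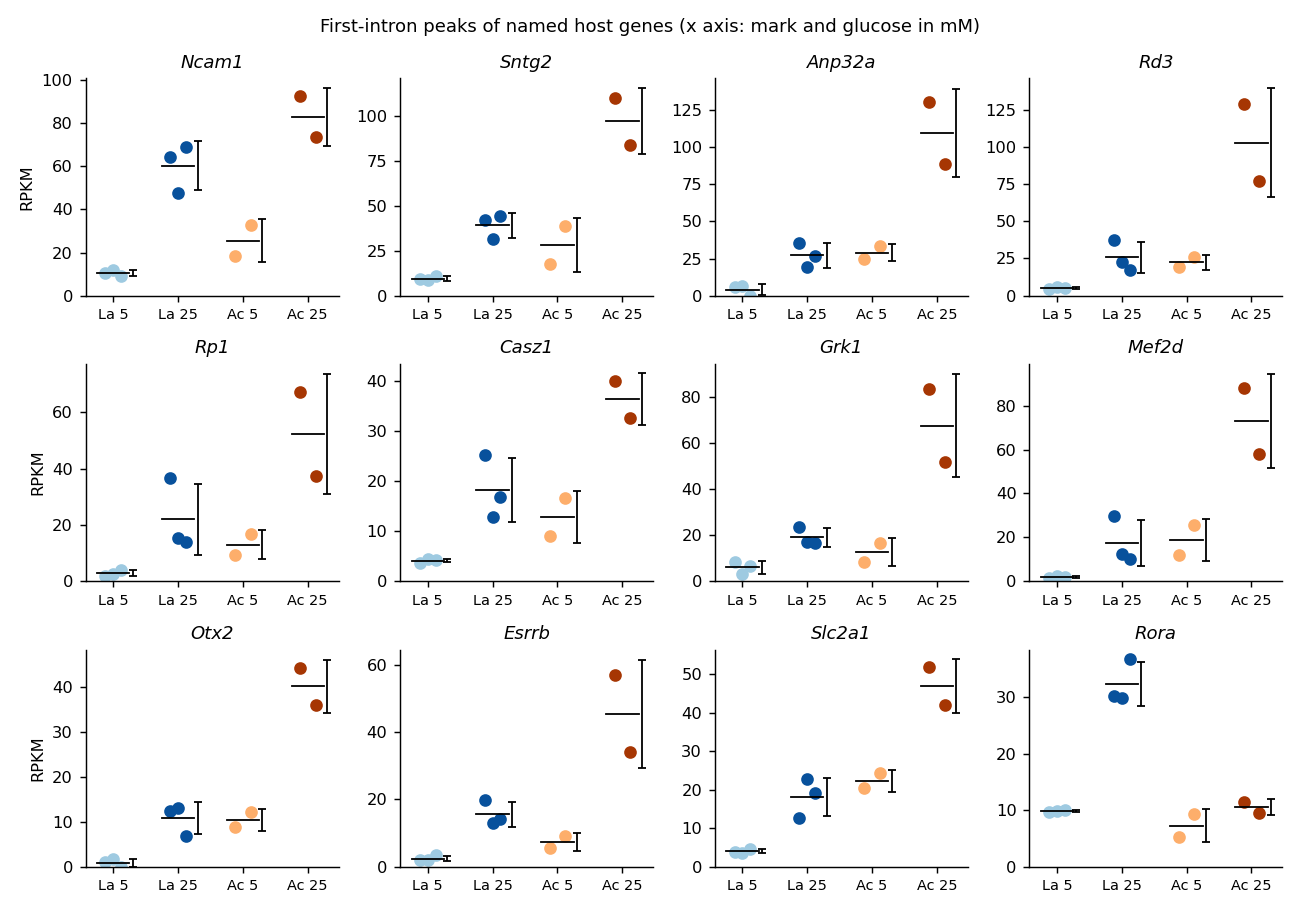
RPKM of 12 first-intron peaks in each library, with H3K18La (La) and H3K27Ac (Ac) at 5 and 25 mM on the horizontal axis, lines for group means and bars for the SD (n = 3 and n = 2). H3K18La is higher in all 3 libraries at 25 mM than at 5 mM in each panel, and Rora is the panel in which H3K18La exceeds H3K27Ac in RPKM.

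Of 32 genes of glycolysis and lactate handling, 8 had first-intron peaks, 17 in all. H3K18La rose at 8 (47.1%, against 25.1% of all peaks) and fell at none, with medians of 1.34 in H3K18La and 0.87 in H3K27Ac, and 0.45 and -0.20 after scaling to the reads in peaks. Without the first 25 mM library 7 rose (41.2%, against 18.8%). The glucose transporter gene Slc2a1 held 3.98, 3.64 and 4.63 RPKM of H3K18La at 5 mM and 12.8, 22.7 and 19.1 at 25 mM (2.00 ± 0.29 SE, adjusted p = 0.00140). Its H3K27Ac was 20.4 and 24.3 RPKM at 5 mM and 51.9 and 42.1 at 25 mM, a change of 1.05 ± 0.36 SE that was not called and was -0.20 when scaled. Hk2, the hexokinase gene active in photoreceptors, rose from 2.50, 3.05 and 1.94 to 20.1, 14.9 and 12.5 RPKM of H3K18La (2.44 ± 0.33 SE, adjusted p = 0.00138). Pkm, the pyruvate kinase gene, rose from 1.74, 1.27 and 0 to 13.4, 6.68 and 6.93 RPKM (2.85 ± 0.54 SE, adjusted p = 0.00311). Without the third 5 mM library, which had no read there, the change of Pkm was 2.18. The groups of these 3 genes were separate in both marks.

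The Pfkfb genes, whose enzymes set the level of an activator of phosphofructokinase, differed among themselves. Pfkfb1 rose by 1.64 ± 0.39 SE in H3K18La (adjusted p = 0.00937). The H3K18La change of Pfkfb2 was 1.34 ± 0.48 SE (adjusted p = 0.0600) and that of Pfkfb3 0.64 ± 0.32 SE (adjusted p = 0.171, -0.60 when scaled to the reads in peaks), and neither was called. Pfkfb2 stood at 0.67 without the second 5 mM library and at 1.75, which was called (adjusted p = 0.0258), without the first. Hk1 had overlapping H3K18La groups, with 2.70, 1.10 and 0 RPKM at 5 mM and 2.90, 4.20 and 1.44 at 25 mM (adjusted p = 0.162). The Hk1 change was 0.47 without the third 5 mM library and 1.81, which was called (adjusted p = 0.0395), without the first. Slc16a7, a monocarboxylate transporter gene, held 2.04, 0.832 and 2.12 RPKM at 5 mM and 0.731, 1.41 and 0.484 at 25 mM, also overlapping (change -0.64 ± 0.49 SE, adjusted p = 0.369). Of 23 genes of insulin and nutrient signalling, 15 hosts had 58 peaks, of which 26 rose in H3K18La (44.8%, against 25.1% of all peaks). Their medians were 1.22 in H3K18La and 0.73 in H3K27Ac, and 0.31 and -0.32 when scaled to the reads in peaks, where the H3K27Ac direction turned. Without the first 25 mM library 17 rose (29.3%, against 18.8%).

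Marker genes of other cell types had lower summed H3K18La at 25 mM than the phototransduction genes, and fewer reads, with medians of 8 to 18 over the 6 H3K18La libraries in the 4 lists. The sums cover different numbers of peaks, 22, 13, 8 and 8 against 18 in phototransduction, so they are not levels per peak. Of 23 Müller glia genes 4 had peaks, 22 in all, and Nfib alone held 15 of them. Of the 22, 5 rose in H3K18La (22.7%, against 25.1% of all peaks, median 0.84), and the summed H3K18La of the 22 was 18.9 to 25.7 RPKM at 5 mM and 40.1 to 52.5 at 25 mM. Bipolar cell genes gave 13 peaks in 6 of 20 hosts, 7 of them in Grik1. Of the 13, 4 rose in H3K18La (30.8%), with a median change of -0.28 in H3K18La and 0.51 in H3K27Ac over all 13. The summed H3K18La of the bipolar list was 10.8 to 15.1 RPKM at 5 mM and 24.7 to 43.9 at 25 mM, so the sum was higher at 25 mM although the median was below 0. Otx2 is in this list as well as in that of photoreceptor factors, and its rising peak given above enters the sum. Genes of amacrine, horizontal and ganglion cells had 8 peaks in 5 of 28 hosts, and 1 rose (12.5%, median 0.48, summed level 4.71 to 11.3 RPKM at 5 mM and 7.64 to 12.3 at 25 mM). None of 8 peaks in 3 of 17 genes of microglia and vessels was called (median 0.41, summed level 6.24 to 9.01 RPKM at 5 mM and 10.3 to 11.7 at 25 mM). The part of cell composition in the results was not tested. Synaptic adhesion and axon guidance genes had 211 peaks in 23 of 34 hosts, 57 in Cadm2 and 43 in Cadm1, with 67 higher (31.8%), 2 lower and a median of 0.84. Clock and activity genes, of which Rora alone gave 57 of the 92 peaks, had 33 higher (35.9%, median 1.01). After scaling to the reads in peaks, the H3K18La medians were 0.41 for Müller glia, -0.54 for bipolar cells, 0.05 for amacrine, horizontal and ganglion cells, 0.07 for synaptic adhesion and axon guidance and, with the direction turned, -0.59 for microglia and vessels and -0.07 for clock and activity genes. Without the first 25 mM library 1 of the 22 Müller glia peaks rose (4.55%, against 18.8% of all peaks in that fit), and the bipolar cell median turned to 0.16.

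A few hosts with very long first introns held many peaks and differed widely in how many of them rose. The intron of Galnt2l spans 4384418 bp in the annotation and held 226 peaks, of which 87 had another gene's start nearest. Of the 226 peaks, 68 rose in H3K18La (30.1%, against 25.1% of all peaks and 31.2% of first-intron peaks). Its strongest peak, at chr8:120335274-120336689, lay nearest to Gse1 and held 4.35, 3.68 and 1.56 RPKM of H3K18La at 5 mM and 31.3, 23.6 and 15.0 at 25 mM (2.72 ± 0.40 SE, adjusted p = 0.00141). Ntm had 75 peaks with 30 rising, Ank3, which encodes an anchor of axonal membrane proteins, 57 with 24, the adhesion gene Cadm2 57 with 29 and Rora 57 with 16 (28.1%). The further hosts were chosen after their values were seen. In Ppp2r2b 36 of 49 peaks rose (73.5%), in Plcb4, a phospholipase gene, 35 of 42, and in the kinase gene Camk1d 31 of 35. At the other end, 4 of 45 rose in the channel gene Asic2, 1 of 39 in Fam155a, 1 of 34 in Dpp6 and 0 of 38 in the adhesion gene Kirrel3. Levels differed too, with median H3K18La at 25 mM of 5.55, 6.70 and 7.72 RPKM in Ppp2r2b, Plcb4 and Camk1d. In Asic2, Fam155a, Dpp6 and Kirrel3 it was 1.15, 0.746, 0.613 and 0.782. The part of level and depth in these counts was not tested. Median H3K18La changes were 1.75 in Camk1d and 0.16 in Fam155a, and the H3K27Ac medians of these hosts were 1.31 and -0.04. The strongest peak of Ank3 held 4.63, 4.81 and 4.68 RPKM of H3K18La at 5 mM and 35.6, 26.1 and 24.9 at 25 mM (2.48 ± 0.30 SE, adjusted p = 0.00138), and that of Cadm2 2.94, 1.44 and 0 at 5 mM and 12, 7.64 and 8.80 at 25 mM (2.72 ± 0.57 SE, adjusted p = 0.00514). Without the third 5 mM library, which had no read there, the change of Cadm2 was 1.93, and without the first it was 3.32. Peaks of 1 host share a locus and are not independent measurements of glucose.

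The photoreceptor motif TAATCC, searched on both strands in the central 300 bp, occurred in 2148 first-intron peaks (12.7%), against 13.0% of later-intron, 6.95% of promoter, 11.9% of intergenic and 11.5% of all peaks. First-intron peaks with the motif had a median H3K18La change of 1.02 and 36.4% called higher, and those without it 0.87 and 30.4%. The H3K27Ac medians were 0.79 and 0.65. The same order held in later introns (H3K18La medians 0.89 and 0.75), promoters (1.05 and 0.87) and intergenic peaks (0.80 and 0.61), so it was not particular to first introns. By H3K18La level at 25 mM the motif was in 16.0% of the highest of 10 groups and 11.5% of the lowest, and by H3K27Ac level in 16.1% and 10.6%. The letters GGGCGG, bound by SP family factors in CpG islands, were in 5.68% of first-intron and 44.8% of promoter peaks. Medians with and without a motif differed by less for the letters TGCTGAC of NRL, CAGATG of proneural factors, AGGTCA of nuclear receptors, TGANTCA of AP-1, CCACNAGG of CTCF and TAAAAATA of MEF2. Other letters differed by H3K18La level at 25 mM too. From the lowest to the highest of the 10 groups, GGGCGG went from 3.89% to 6.07% and AGGTCA from 19.3% to 24.0%. TGANTCA went the other way, from 10.7% to 8.48%, and the rest changed less. A match describes letters only, and no binding was measured.

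At 25 mM, H3K18La exceeded H3K27Ac in RPKM at the strongest peaks of Ntm and Rora. The antibodies differ, so this does not compare amounts of the marks. The peak of Ntm, at chr9:29483630-29485389, held 12.9, 14.1 and 13.8 RPKM of H3K18La at 5 mM and 37.0, 33.3 and 42.1 at 25 mM (1.42 ± 0.28 SE, adjusted p = 0.00356). Its H3K27Ac was 10.4 and 15.6 RPKM at 5 mM and 22.1 and 19.2 at 25 mM (0.68 ± 0.34 SE, not called, -0.56 when scaled to the reads in peaks). In Rora, at chr9:69099516-69100844, H3K18La was 9.63, 9.87 and 9.97 RPKM at 5 mM and 30.2, 29.8 and 36.8 at 25 mM (1.66 ± 0.28 SE, adjusted p = 0.00205). H3K27Ac of the Rora peak was 5.22 and 9.33 RPKM at 5 mM and 11.5 and 9.53 at 25 mM (0.55 ± 0.35 SE, not called, -0.65 when scaled). At both peaks each 25 mM library of H3K18La was above each of H3K27Ac, and at 5 mM this held for Rora but not for Ntm, where the second H3K27Ac library was the highest. Repeat-masked bases made up 90% of the Ntm peak and 63.4% of the Rora peak, against a median of 11.1% in first-intron peaks. How reads in repeats were placed is not given in the sources used here, so values in these peaks are uncertain.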

How the data were processed

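CUT&Tag signal was analysed in 10 libraries of mouse retinal explants. Paired-end reads were mapped by the authors to GRCm38 (nf-core/cutandrun), and MACS peaks present in at least 2 replicates were kept outside blacklisted regions and annotated with ChIPseeker 1.34.1. Reads were counted with csaw over merged consensus peaks, which the methods describe for H3K18La over several postnatal ages and, for a principal component analysis of the explants, for both marks merged. The peak number here equals that given for the postnatal set, and if that is the set used, regions marked by H3K27Ac alone are missing. The deposited values are RPKM, reads per kilobase of peak scaled to a library total, and the authors' RPKM gave whole reads in 100% of values (within 0.01). Whether csaw normalization enters the total is not given in the sources used here. The authors' own differential table (log2 fold changes, p-values and group means for H3K18La) was not used.

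Groups and replicate numbers came from the sample labels, which give 1 batch. The members and gene lists were chosen with earlier results of these data known. limma 3.58.1 in R 4.3.3 was fitted to log2(RPKM + 0.5) of all 108253 peaks, with 4 groups in 1 fit and an intensity trend, and p-values were adjusted over the whole table by Benjamini-Hochberg (threshold 0.05), without a filter on low values. Contrasts were 25 minus 5 mM within each mark and their difference. Scripts were tested on simulated data. Library values were compared by exact two-sided permutation tests (scipy 1.17.1). Introns were matched to GENCODE M21, in which 16934 of the host transcripts were found, and sequence and repeat masking came from GRCm38. Named peaks were the 5 highest by mean RPKM in each mark, the 6 largest rises and 3 largest falls among called peaks with separate groups and at least 30 reads (none qualified in H3K27Ac or as a fall), the highest peak of each host in 4 gene lists, and the highest of the hosts with most peaks. Peaks said to be chosen after their values were seen lie outside this rule, and 1 gene of the rule is not reported here. Intervals of read ratios are exact conditional ones at 95% and cover counting error only. Alternatives were another pseudocount, a minimum mean RPKM, centring, scaling to reads in peaks, separate fits per mark, moderation without trend or with robust weights, voom, a replicate block, a stricter threshold, each library left out and, added after the data were seen, 2 stricter member definitions and the gene list counts without the first 25 mM library.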

Additional observations from a re-analysis of the deposited data

How the results depend on the processing

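The count of 5322 first-intron peaks called in H3K18La stayed between 3666 and 5867 with another pseudocount, a minimum mean RPKM of 1, each mark fitted alone, no trend, robust weights, voom or a replicate block (4824), and between 3819 and 5025 when each library was left out. It was 1876 when centred, 0 when scaled to the reads in peaks and 2801 at an adjusted p of 0.01. With the host of most peaks left out it was 5254 of 16752, and with peaks in intron 1 of every overlapping transcript alone 4230 of 13511, definitions chosen after seeing the data. For H3K27Ac the count of 0 became 1536 with a pseudocount of 1, 1248 with a minimum mean RPKM of 1, 810 with robust weights and 3844 with voom, and ranged from 0 to 1235 when each library was left out. It was 1235 without the third H3K18La library at 5 mM, which changes this contrast only through the shared spread, and 1127 without the second H3K27Ac library at 5 mM, and 0 under each remaining alternative. The interaction stayed at 0 under every alternative that gave a value, and the separate fits per mark gave none.

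The H3K18La median of 0.88 was 1.32 and 0.66 with pseudocounts of 0.1 and 1, 1.13 with the minimum mean RPKM, 0.25 when centred and 0.0245 when scaled to the reads in peaks, and 0.83 to 0.96 with a library left out. The H3K27Ac median of 0.67 was 0.86 with a pseudocount of 0.1, 0.85 with the minimum mean RPKM, 0.24 when centred and -0.26 when scaled, and 0.49 to 0.87 with a library left out. Scaling lowered changes of all peaks by a median of 0.81 in H3K18La and 0.86 in H3K27Ac. The share of peak reads is the same in RPKM times width by construction. Same-numbered replicates of the 2 glucose levels showed little shared deviation (correlations of 0.0238, 0.0172 and 0.0101 in H3K18La and -0.00401 in H3K27Ac). With so few reads per peak, counting noise alone would keep such values near 0. They therefore cannot decide whether the numbers pair the samples. Across the marks the correlations were -0.00809 and -0.00751 for the 2 numbers at 5 mM and 0.134 and 0.0503 at 25 mM, so that the first 25 mM libraries of the marks deviated together weakly, and the fits treat them as unrelated. Within a mark, the replicate block left 0 calls in H3K27Ac and in the interaction.

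For the named peaks, leaving out 1 library moved the H3K18La fold by over 1.5 times at 16 of the 45 called, each given beside its values, and over all alternatives 1977 values kept their direction and their side of the threshold, 115 lost the call, 147 gained it and 25 changed sign. Scaling to the reads in peaks turned the H3K27Ac change of Atp8a2 (-0.16), Hk1 (-0.20), Hpcal1 (-0.25), Impg1 (-0.13), Mef2c (-0.12), Ntm (-0.56), Pde6c (-0.0726), Pfkfb1 (-0.27), Pfkfb3 (-0.79), Rora (-0.65), Slc2a1 (-0.20) and Thrb (-0.32). It turned the H3K18La change of Cnga1 (-0.41), Impg1 (-0.23), Mef2c (-0.13), Pde6c (-0.0606), Pfkfb3 (-0.60) and Rxrg (-0.73). Centring turned Pfkfb3 in H3K27Ac (-0.15) and Rxrg in H3K18La (-0.15). Leaving out 1 library turned Mef2c in H3K18La (-0.0635 without the first at 5 mM, range -0.0635 to 1.36) and, in H3K27Ac, Pfkfb3 (-0.11 without the first at 5 mM, range -0.11 to 0.68), Rxrg (0.36 without the first at 25 mM and 0.26 without the second at 5 mM, range -0.49 to 0.36) and Slc16a7 (0.14 without the second at 25 mM, range -0.77 to 0.14). The cause was not tested. A median of 1 to 6 reads per first-intron peak in an H3K18La library limits the precision at single peaks.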

Other observations

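The peaks given here were chosen after their values were seen. The 3 largest H3K27Ac differences among first-intron peaks with at least 30 reads in that mark lay in Dock1, Grap2 and Rps6ka2. In Dock1, which encodes a guanine nucleotide exchange factor, H3K27Ac was 0.670 and 0 RPKM at 5 mM and 14.1 and 7.81 at 25 mM (3.85 ± 0.73 SE, adjusted p = 0.0553, limma). Only 1 read lay there at 5 mM, and the read ratio of 39.6 had an exact 95% counting interval of 6.82 to 1594. Grap2, an adaptor protein gene, held 0 and 1.11 RPKM at 5 mM and 8.84 and 7.17 at 25 mM (3.24 ± 0.59 SE, adjusted p = 0.0553), and the ribosomal S6 kinase gene Rps6ka2 0 and 2.03 at 5 mM and 10.0 and 8.01 at 25 mM (3.07 ± 0.84 SE, adjusted p = 0.0656). None passed the threshold, and the groups of each were separate. H3K18La rose at all 3 (adjusted p = 0.0116, 0.0223 and 0.0136), but the calls of Dock1 and Rps6ka2 were lost without the second 25 mM library and that of Grap2 held in only 1 of 6 fits with an H3K18La library left out. The Dock1 change of 2.41 ± 0.59 SE was 3.02 without the third 25 mM library, and that of Rps6ka2, 2.71 ± 0.69 SE, was 3.50 without the second at 5 mM.

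At 120 peaks (0.707%, against 0.701% of all peaks) the glucose groups separated upward in H3K18La and downward in H3K27Ac, and 2 of them are given. Neither H3K27Ac difference was called. Sh3rf3, at chr10:58887490-58887812, held 0, 1.19 and 0 RPKM of H3K18La at 5 mM and 4.73, 6.09 and 5.22 at 25 mM (adjusted p = 0.00191, limma), while H3K27Ac was 2.15 and 2.49 at 5 mM and 1.29 and 0.834 at 25 mM. Rasgef1c, at chr11:49931027-49931579, held 0, 0.349 and 0 RPKM of H3K18La at 5 mM and 1.84, 1.78 and 2.44 at 25 mM (adjusted p = 0.00596) and 2.93 and 2.04 at 5 mM and 0.503 and 0.974 at 25 mM of H3K27Ac. The H3K18La change of Sh3rf3 was 2.95 ± 0.49 SE and, without the second 5 mM library, 3.54. The test of the difference between marks did not pass for either (adjusted p = 0.945 and 0.945), and both rest on at most 8 reads in a library.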
